A study of Mus musculus with 192 samples.

Results

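What each ligand of the combination PAM + LPS + Zymosan added to the other pair was measured in dendritic cells grown from mouse bone marrow. The 12 libraries described here were taken by their group labels, 3 for the triplet and 3 for each of its pairs PAM + LPS, PAM + Zymosan and LPS + Zymosan, out of a series of 64 groups with 3 libraries each. A further 12 libraries, 3 each of PAM, LPS, Zymosan and the unstimulated group named Ctrl, give the effect of each ligand alone. The series tested 7 ligands of pattern recognition receptors singly, in pairs and in triplets. All cells came from female C57BL/6J mice aged 6 to 8 weeks, were cultured with GM-CSF at 15 ng per ml, were plated at 100000 cells a well and were exposed for 6 hours. The labels describe the Zymosan preparation as depleted, and ligand doses are not given in the sources used here. Nothing in the labels says that the 3 libraries of a group came from separate mice or cultures, so the spread between them may be technical. Each p-value and SE uses that spread pooled over all 64 groups, and not that of the 3 libraries of a group alone. Cultures grown with GM-CSF hold macrophage-like cells beside dendritic cells, so a level is that of the whole well.

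PAM is a usual short name for synthetic lipopeptides that are sensed by TLR2 and signal through the adaptor MyD88 to NF-kB and MAP kinases. LPS, from the wall of Gram-negative bacteria, is sensed by TLR4, which uses MyD88 and also the adaptor TRIF, and TRIF leads to type I interferon and its target genes. Zymosan is a yeast cell wall preparation rich in beta-glucan, and the depleted form is prepared so that it acts mainly through the lectin receptor Dectin-1, the product of Clec7a, rather than through TLR2. Dectin-1 signals through the kinase Syk. Dendritic cells that are stimulated through these receptors secrete cytokines and chemokines, raise costimulatory molecules and shift towards glycolysis.

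Totals of the 12 libraries ran from 92149 to 333995 unique molecular identifiers (UMIs), and those of the 12 single-ligand and Ctrl libraries from 61823 to 229979. Levels are CPM, UMI counts scaled to equal library totals with TMM factors. PAM + LPS replicate 1 stood apart from its group. The chi-square per degree of freedom of its counts against those of PAM + LPS replicates 2 and 3 was 2.55 and 2.59, against 1.13 to 1.8 for the other replicate pairs of the 8 groups, so results of the Zymosan comparison are also given without it. Of 16 dendritic cell and macrophage markers, 16 were detected in each of the 4 groups, with a summed level of 11300 to 12200 CPM in the triplet, 12200 to 13900 in PAM + LPS, 14200 to 15000 in PAM + Zymosan and 12600 to 14200 in LPS + Zymosan. Of 10 neutrophil markers 8 were detected, with Elane and Mpo at 0, and the list summed to 758 to 845 CPM in the triplet, 858 to 1180 in PAM + LPS, 749 to 1080 in PAM + Zymosan and 844 to 931 in LPS + Zymosan. Of 7 T cell markers 1, Lck, was detected in the triplet and 1 in LPS + Zymosan, 2 in PAM + LPS and 0 in PAM + Zymosan, with a summed level of 0 to 28.2, 0 to 17.9, 0 to 14.2 and 0 CPM, and Cd3e, Cd3d and Cd3g were at 0 in all 4 groups. All 6 natural killer cell markers were at 0 in the 4 groups. The part of these marker levels in the results below was not tested.

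The 3 ligands added very different numbers of genes to their pairs. A gene was called when edgeR's quasi-likelihood test gave a Benjamini-Hochberg adjusted p under 0.05 over the 4720 genes tested. LPS added to PAM + Zymosan changed 1045 genes (22.1% of those tested), of which 641 were higher (13.6%) and 404 lower (8.56%) in the triplet. Zymosan added to PAM + LPS changed 201 genes (4.26%), 103 higher (2.18%) and 98 lower (2.08%). That split became 101 higher and 133 lower without PAM + LPS replicate 1, and 83 and 55 without PAM + LPS replicate 3. PAM added to LPS + Zymosan changed 24 genes (0.508%), 20 higher (0.424%) and 4 lower (0.0847%). A log2 fold change of at least 1 in size was reached by 527 higher (11.2%) and 283 lower (6%) genes with LPS, by 65 (1.38%) and 36 (0.763%) with Zymosan and by 7 (0.148%) and 1 (0.0212%) with PAM. Among all tested genes, the 3 triplet libraries lay wholly above the 3 pair libraries in 17.9%, 7.97% and 5.97% with LPS, Zymosan and PAM added, and wholly below in 17.5%, 9.81% and 6.59%. The statements on overlap for single genes are read against these shares. Genes named as the largest rises or falls were picked among genes without overlap, so for them the lack of overlap was fixed by that choice. When libraries were scaled by their totals alone, the split with LPS became 549 higher and 691 lower and that with Zymosan 124 and 70. These comparisons share the 3 triplet libraries, so their values are set side by side and not tested against each other. Because the libraries are bulk RNA, fewer cells of a type and less RNA per cell cannot be told apart.

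**Figure D1:**
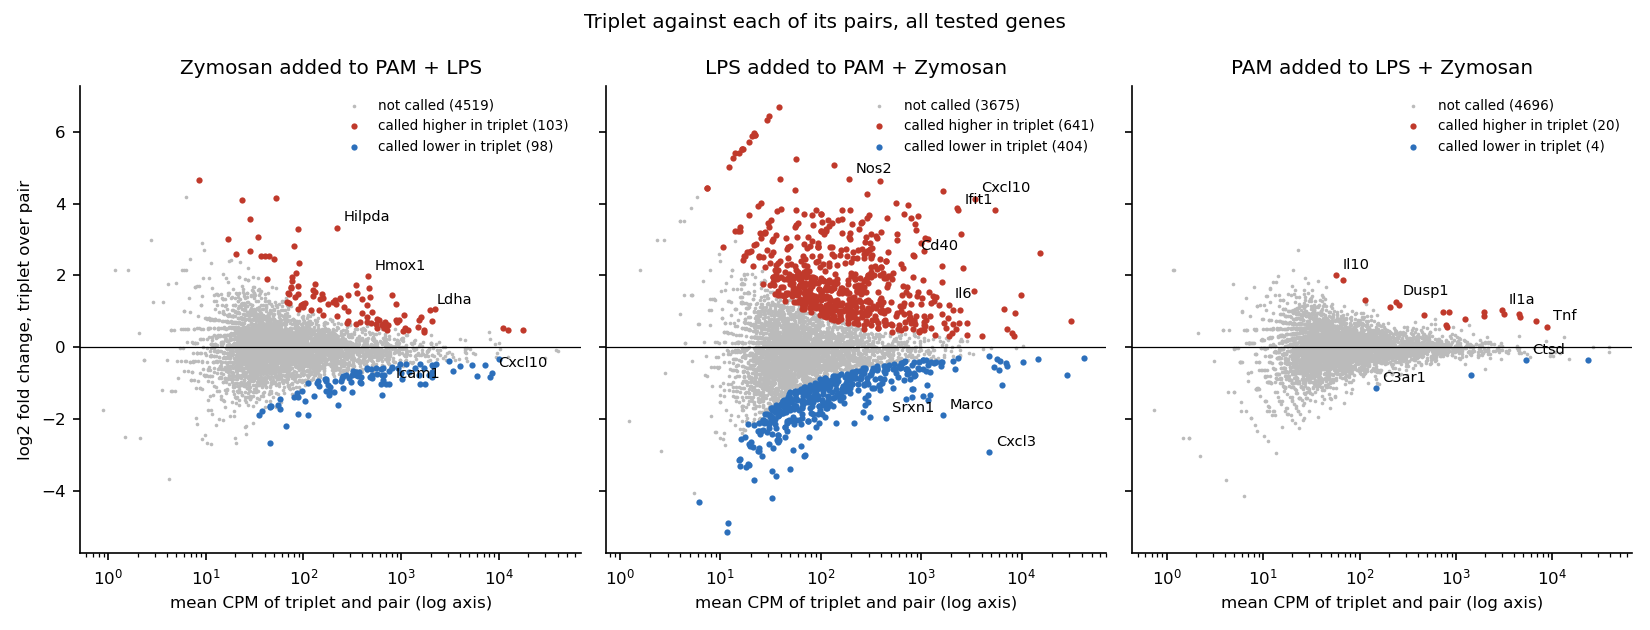
Log2 fold change of the triplet over each pair (vertical axis) against the mean CPM of both groups (horizontal log axis), 1 point per tested gene. Red points were called higher in the triplet (103, 641 and 20 genes), blue points lower (98, 404 and 4), and grey points were not called.

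Zymosan added to PAM + LPS raised genes of glucose uptake, glycolysis and hypoxia, and lowered Il6, Il12a, Cxcl10, Cd40 and Icam1 among others. Of the 20 tested genes on the glycolysis and hypoxia list, 12 were called higher and 0 lower, against 2.18% and 2.08% of all tested genes. The median log2 fold change was 0.97 against −0.05 over all tested genes. Without PAM + LPS replicate 1 the list held 10 higher and 0 lower calls, with the same median of 0.97. The glucose transporter Slc2a1 was at 456, 549 and 598 CPM in the triplet and at 128, 123 and 206 CPM in PAM + LPS, so every triplet library lay above every pair library. Its log2 fold change was 1.74 ± 0.24 (SE), with adjusted p = 1.63e-09, edgeR's quasi-likelihood test. Hk2, the hexokinase that traps glucose in the cell, was at 475, 592 and 508 CPM against 137, 187 and 206 (log2 fold change 1.51 ± 0.19). Ldha, which makes lactate from pyruvate, was at 2440, 2390 and 3190 CPM against 984, 1390 and 1450 (1.04 ± 0.15, adjusted p = 5.65e-08 by the same edgeR test). Neither gene's libraries overlapped between the groups.

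Further along the same pathway, Tpi1, Pgk1, Pgam1 and Pkm, enzymes between the split of fructose bisphosphate and pyruvate, had log2 fold changes of 1.33, 0.77, 1.64 and 0.89, and the lactate exporter Slc16a3 rose by 1.49 on the log2 scale. Pfkl and Aldoa were called at 1.13 and 0.55. The Pfkl call was lost when any triplet library, PAM + LPS replicate 1 or PAM + LPS replicate 2 was left out (adjusted p 0.0838 to 0.284), and the Aldoa call was lost without any triplet library, PAM + LPS replicate 1 or PAM + LPS replicate 3 (0.0579 to 0.214). The hypoxia-inducible genes Bnip3, a mitophagy receptor, and Vegfa, an angiogenic growth factor, were called at 2.47 ± 0.54 and 2.55 ± 0.6. Hif1a itself, the oxygen-regulated transcription factor, was not called.

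**Figure D2:**
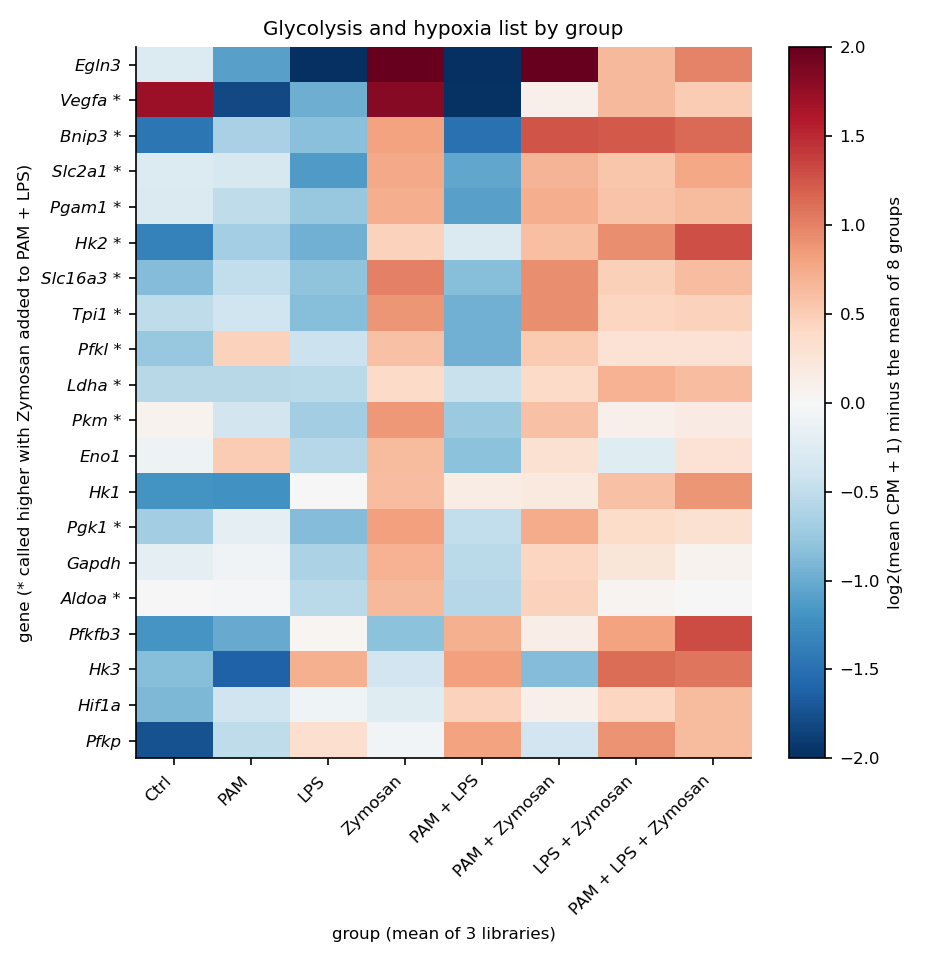
The 20 tested genes of the glycolysis and hypoxia list (rows) in the 8 groups of the triplet (columns), as log2(mean CPM + 1) of 3 libraries minus the gene's mean over the 8 groups. A star marks the 12 genes called higher when Zymosan was added to PAM + LPS, and most of these are red in all 4 groups that hold Zymosan and blue in PAM + LPS.

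The promoters of Slc2a1 and Ldha are shown because both genes rose and hold the core ACGTG of the hypoxia response element. Each runs from 250 bases before to 50 bases after a start of the gene in RefSeq, build GRCm38.p6, at chr4:119108495-119108794 (+ strand) for Slc2a1 and chr7:46845554-46845853 (+ strand) for Ldha. Ldha has 2 starts in the RefSeq table, and the window shown is the first listed one that holds the motif. Capitals mark every match on either strand, 1 in Slc2a1 and 5 in Ldha, where CACGTG holds a match on each strand.
Slc2a1: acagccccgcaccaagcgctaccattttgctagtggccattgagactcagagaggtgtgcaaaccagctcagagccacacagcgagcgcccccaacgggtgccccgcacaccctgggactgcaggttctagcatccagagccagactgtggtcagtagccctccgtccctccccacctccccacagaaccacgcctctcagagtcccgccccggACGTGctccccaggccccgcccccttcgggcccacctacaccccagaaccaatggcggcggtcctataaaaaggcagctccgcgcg
Ldha: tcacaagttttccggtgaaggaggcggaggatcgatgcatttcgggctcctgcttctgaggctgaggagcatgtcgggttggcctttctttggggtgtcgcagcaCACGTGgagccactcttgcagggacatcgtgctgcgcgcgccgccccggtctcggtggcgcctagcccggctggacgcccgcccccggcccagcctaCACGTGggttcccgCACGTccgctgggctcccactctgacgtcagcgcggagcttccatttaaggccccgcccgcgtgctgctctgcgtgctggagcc
The motif stood in the windows of 10 of the 12 called list genes and of 43 of the 87 matched genes that were higher with Zymosan (49.4%). It stood in 31.4% of the 3829 tested genes with a window in the table and in 20.5% of the 73 matched genes that were lower. A gene with several listed starts was counted when any of its windows held the motif. A match is a description of these letters and not of a bound site.

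By the rule fixed for named genes, which required enough CPM and no overlap between libraries, the largest rises with Zymosan included genes outside that list. Hilpda, a lipid droplet protein whose gene responds to hypoxia, was at 380, 416 and 417 CPM in the triplet and at 18.2, 53.4 and 39 CPM in PAM + LPS. The log2 fold change of Hilpda was 3.33 ± 0.39 (adjusted p = 3.22e-12, edgeR's quasi-likelihood test). Lhfpl2, a tetraspan membrane protein, had 3.28 ± 0.45, the stress cytokine Gdf15 had 2.82 ± 0.44, and the alarmin Il33 had 3.08 ± 0.71 at 38, 63.4 and 83.5 CPM against 9.11, 0 and 10.6. The Il33 value thus rested on few UMIs in PAM + LPS. Fam50a was called at 2.69, and that call was lost without triplet replicate 1 (adjusted p = 0.0636) or without PAM + LPS replicate 2 or 3 (0.0506 and 0.0792).

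Gm7120 and Hamp, also among these rises, had 3 or fewer UMIs in PAM + LPS. Gm7120 had 41 UMIs over the triplet libraries and 3 over the pair libraries, or 20.2 times as many after scaling by library totals and TMM factors (95% counting interval 6.46 to 102). Hamp, which encodes the iron-regulatory hormone hepcidin, had 19 against 2 UMIs, or 14.1 times as many (3.39 to 125). The Hamp call was lost without triplet replicate 1 (adjusted p = 0.0576) or PAM + LPS replicate 3 (0.102). These intervals cover counting error only.

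On the list of nitric oxide, arginine, itaconate, prostaglandin and antioxidant genes, 4 of 14 tested genes were higher with Zymosan, 1 was lower and 9 were not called, and the median was −0.03. Hmox1, which degrades heme, was at 826, 789 and 584 CPM in the triplet against 219, 160 and 184 CPM in PAM + LPS, with no overlap (log2 fold change 1.98 ± 0.24, adjusted p = 1.33e-11, edgeR's quasi-likelihood test). The sulfiredoxin gene Srxn1 had a log2 fold change of 1.43 ± 0.32, the glutathione synthesis gene Gclm 1.85 ± 0.44 and the thioredoxin reductase Txnrd1 0.8 ± 0.2. The Gclm call was lost without triplet replicate 3 (adjusted p = 0.0871), and the Txnrd1 call without triplet replicate 2 (0.0796) or PAM + LPS replicate 2 (0.0656). Sod2, Nqo1 and Slc7a11 of the same list were not called. The single lower gene was Irg1, which makes itaconate, at −0.52 ± 0.11.

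Of the 16 cytokine genes tested, 0 were called higher and 4 lower with Zymosan, and the median was −0.56. Il6 was at 2910, 2570 and 2410 CPM in the triplet against 4280, 3810 and 4240 CPM in PAM + LPS, so all triplet libraries lay below the pair (log2 fold change −0.65 ± 0.13, adjusted p = 0.000196, edgeR's quasi-likelihood test). Il12a, a subunit of interleukin 12, was at 228, 211 and 118 CPM against 510, 433 and 379 (−1.23 ± 0.22). Il18 had −1.35 ± 0.32, a call lost without triplet replicate 3 (adjusted p = 0.0891). Il1b was called at −0.49 ± 0.11, but PAM + LPS replicate 1 was at 10200 CPM beside 6930 and 7960 in the other pair libraries, and without it the value was −0.33 (adjusted p = 0.103). Tnf was at 10200, 11300 and 10100 CPM against 10400, 9540 and 9210 CPM, and these overlapped.

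Chemokines showed 1 higher and 3 lower calls among 17 tested genes, against 2.18% and 2.08% of all tested genes, with a median of −0.26. Cxcl10, which attracts T cells, was at 5940, 6380 and 6990 CPM in the triplet and at 8460, 10900 and 12200 CPM in PAM + LPS, with no overlap (log2 fold change −0.71 ± 0.16, adjusted p = 0.00147, edgeR's quasi-likelihood test). Cxcl11, a ligand of the same receptor, had −1.33 ± 0.34, and its call was lost without triplet replicate 1 or 3 or PAM + LPS replicate 3 (adjusted p 0.0525 to 0.178). Cxcl3, a neutrophil attractant, was called at −1.01, but this rested on PAM + LPS replicate 1. That library was at 4530 CPM, while PAM + LPS replicates 2 and 3 were both at 1310 CPM and the triplet at 1260, 1300 and 835 CPM. Without it the Cxcl3 value was −0.22 (adjusted p = 0.71). Ccl4 was called higher at 0.48 and lost the call without that library (0.36, adjusted p = 0.253), without PAM + LPS replicate 2, and without each triplet library (0.052 to 0.132).

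The interferon-response list had 0 higher and 4 lower calls among its 15 tested genes, with a median of −0.36, and 0 higher and 5 lower without PAM + LPS replicate 1. Beside Cxcl10 the lower genes were Ifit3 (−0.69 ± 0.18), Mx1 (−0.48 ± 0.12) and Irf7 (−0.49 ± 0.15). Each of these 3 calls was lost without triplet replicate 2, PAM + LPS replicate 2 or PAM + LPS replicate 3 (adjusted p 0.0506 to 0.292), and that of Irf7 also without triplet replicate 1 (0.0992). The Irf7 call was kept under 8 of 13 alternatives. Ifit1, an RNA-binding antiviral protein, was at 4490, 3970 and 4710 CPM against 4090, 5470 and 5080 CPM, which overlapped. Of 13 maturation and costimulation genes, 2 were lower and 0 higher. Cd40, which receives help signals from T cells, was at 1270, 1420 and 1650 CPM against 2170, 2740 and 2440 CPM (−0.76 ± 0.14, adjusted p = 2.43e-05, edgeR's quasi-likelihood test), and the adhesion molecule Icam1 at 389, 542 and 550 CPM against 866, 1070 and 1090 CPM (−1.03 ± 0.17). Both genes lay lower in every triplet library. Of 26 NF-kB and feedback genes 1 was higher, the phosphatase Dusp1, and 1 lower, Tnfaip2 (−0.69 ± 0.12). Both counts were near the shares over all tested genes with Zymosan, 2.18% higher and 2.08% lower.

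The largest falls with Zymosan, by the rule fixed for named genes, were in Cebpd, a transcription factor, at 19, 42.3 and 6.96 CPM against 118, 128 and 85.1 (log2 fold change −2.18 ± 0.51), Trim21, an antibody receptor in the cytosol (−1.88 ± 0.36), Zfp263 (−1.84 ± 0.41), Cdk2ap2 (−1.88 ± 0.58) and Rras2 (−1.71 ± 0.48). The Cebpd call was lost without triplet replicate 3 (adjusted p = 0.0639). The Rras2 call was lost without triplet replicate 2 or 3 or PAM + LPS replicate 2 (0.0639 to 0.16), and the Cdk2ap2 call without any triplet library or PAM + LPS replicate 1 or 3 (0.056 to 0.344). Trim21 and Zfp263 kept their calls when each library was left out. After the 12 libraries of the triplet and its pairs were thinned to equal totals by 1 random draw, Zfp263 lost its call (−1.51, adjusted p = 0.0909, edgeR's quasi-likelihood test). Of the genes named as called with Zymosan above, Il33, Fam50a, Vegfa, Pfkl, Aldoa, Srxn1, Gclm, Txnrd1, Cxcl11, Ifit3 and Cdk2ap2 lost theirs as well (0.0535 to 0.26).

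**Figure D3:**
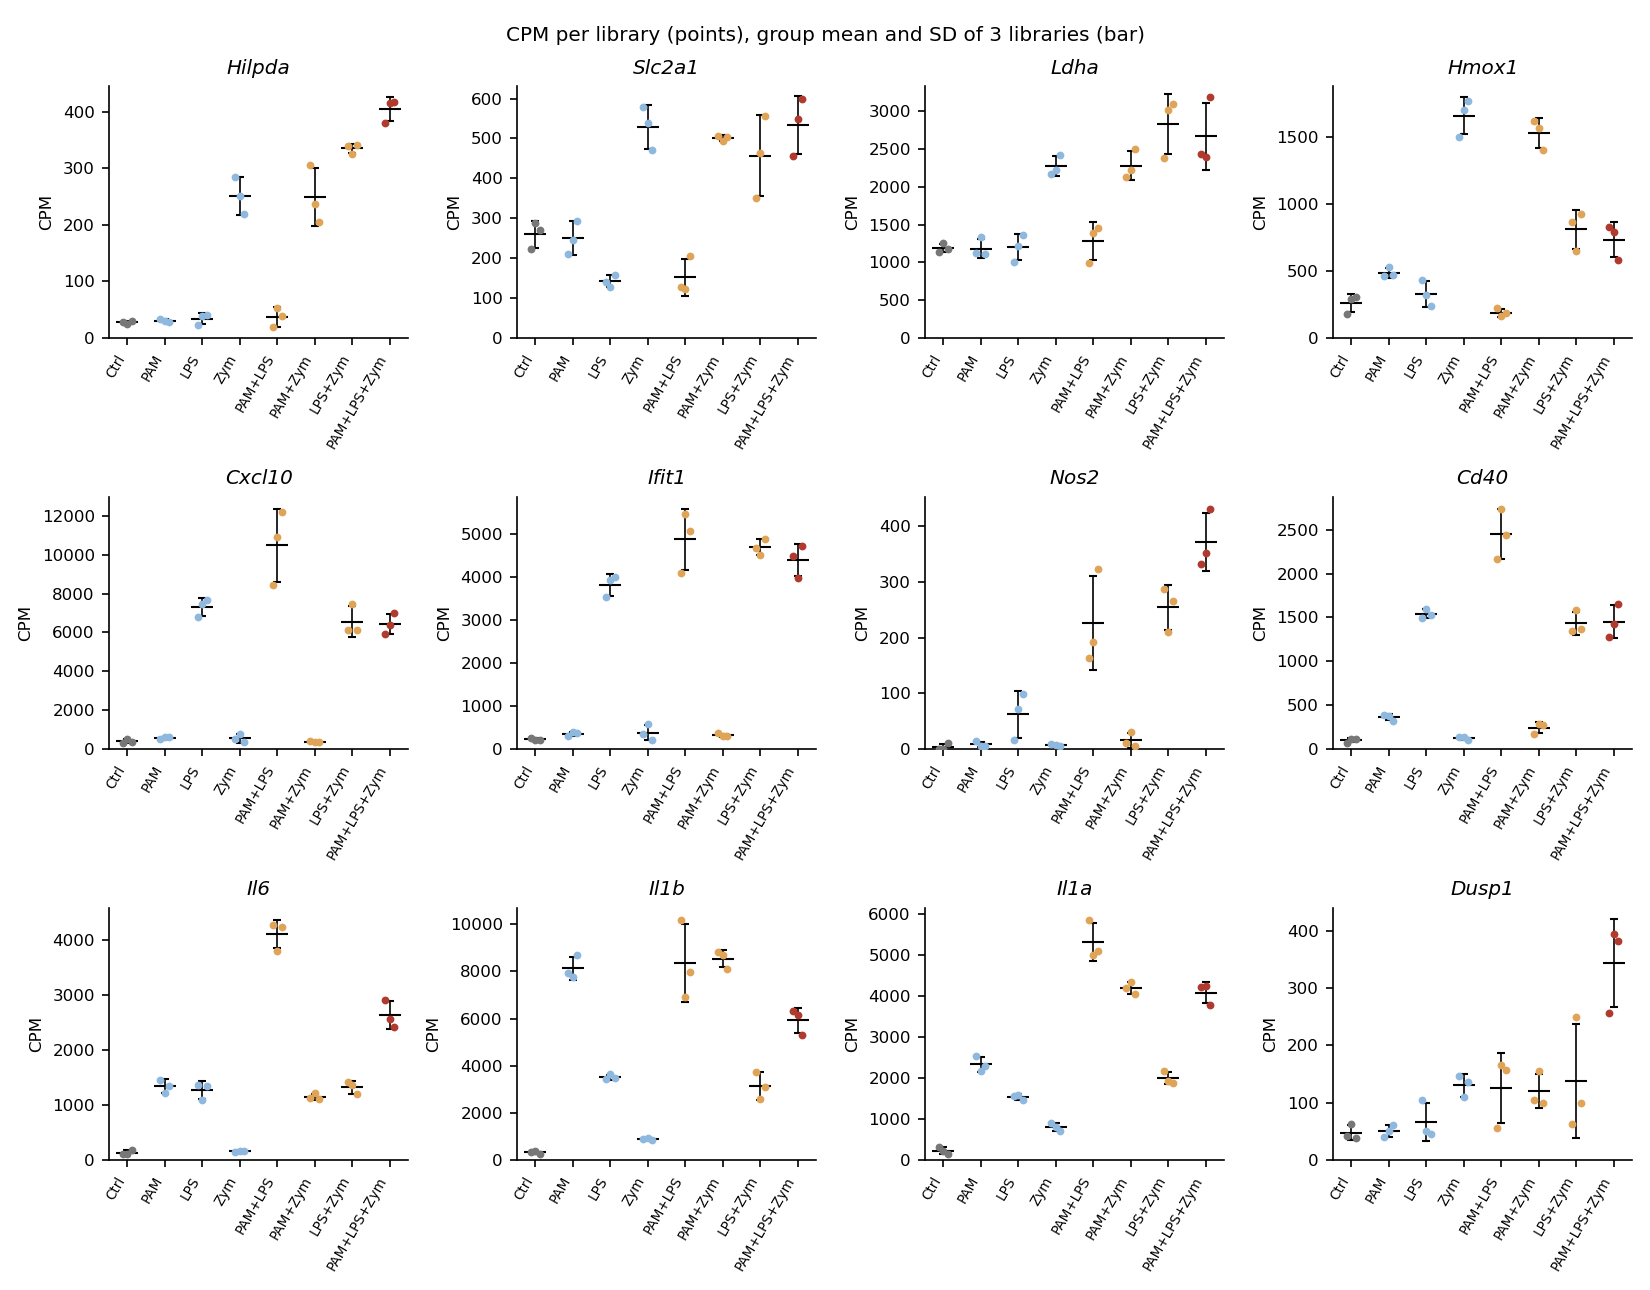
CPM of 12 genes in the 8 groups, 1 point per library, with the mean and SD of 3 libraries as black bars (orange pairs, red triplet). Hilpda, Slc2a1, Ldha and Hmox1 are low in PAM + LPS and higher in the triplet, Cxcl10, Ifit1, Nos2 and Cd40 are near the bottom in PAM + Zymosan, and Dusp1 is highest in the triplet.

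LPS added to PAM + Zymosan raised interferon-response and MHC class I presentation genes together with several cytokines, and lowered Cxcl1, Cxcl2 and Cxcl3 and the antioxidant genes Srxn1, Gclm and Txnrd1. All 15 interferon-response genes were called higher, with log2 fold changes from 2.5 to 4.35 and a median of 3.66 against −0.08 over all tested genes. Ifit1 was at 4490, 3970 and 4710 CPM in the triplet and at 358, 302 and 290 CPM in PAM + Zymosan (3.82 ± 0.18, adjusted p = 6.86e-52, edgeR's quasi-likelihood test). Ifit2, its relative, was at 2730, 3280 and 3350 CPM against 84.2, 236 and 130 (4.35 ± 0.24), and Irf7, the transcription factor that amplifies interferon, at 1680, 1580 and 1970 CPM against 126, 155 and 130 (3.66 ± 0.22). In each of these genes all triplet libraries were far above all pair libraries. Ifnb1, the interferon gene itself, was detected at low counts, 9 UMIs in the triplet and 2 in PAM + Zymosan, or 4.96 times as many after scaling by library totals and TMM factors (counting interval 1.03 to 47.2), and was not called.

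The promoters of Ifit1 and Cxcl10 are shown because both genes rose with LPS and hold the letters GAAA and GAAA separated by 2 bases of any kind, as in the interferon-stimulated response element. They lie at chr19:34640639-34640938 (+ strand) and chr5:92348840-92349139 (− strand) in GRCm38.p6 of RefSeq. Capitals mark the matches on either strand, 2 in Ifit1 and 1 in Cxcl10.
Ifit1: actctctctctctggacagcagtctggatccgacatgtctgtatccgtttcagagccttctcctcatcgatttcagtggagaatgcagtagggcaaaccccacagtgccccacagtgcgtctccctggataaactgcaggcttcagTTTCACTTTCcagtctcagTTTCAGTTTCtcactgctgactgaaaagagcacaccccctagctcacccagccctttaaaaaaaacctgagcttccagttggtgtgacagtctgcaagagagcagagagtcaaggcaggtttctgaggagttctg
Cxcl10: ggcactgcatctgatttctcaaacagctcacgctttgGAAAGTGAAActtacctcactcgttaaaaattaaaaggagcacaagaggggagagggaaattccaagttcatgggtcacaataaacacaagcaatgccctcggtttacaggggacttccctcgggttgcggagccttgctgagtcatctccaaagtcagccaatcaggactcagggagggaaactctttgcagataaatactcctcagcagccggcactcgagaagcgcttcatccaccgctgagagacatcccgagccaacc
Of the 11 matched interferon-list genes 5 held the motif, as did 15.2% of the 507 matched genes that were higher with LPS and 5.28% of the tested genes with a window. It also stood in 15 of the 73 matched genes that were lower when Zymosan was added to PAM + LPS (20.5%).

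Of 17 chemokine genes tested, 10 were called higher and 5 lower when LPS was added, against 13.6% and 8.56% of all tested genes. Cxcl10 was at 5940, 6380 and 6990 CPM in the triplet against 411, 361 and 340 CPM in PAM + Zymosan (log2 fold change 4.14 ± 0.22, adjusted p = 6.17e-45, edgeR's quasi-likelihood test). Ccl5, which draws T cells and monocytes, was at 28500, 21500 and 29300 CPM against 4310, 4070 and 4440 CPM (2.63 ± 0.15). The T cell attractants Cxcl9 and Cxcl11 rose by 2.8 and 3.46, and the monocyte attractant Ccl2 by 1.89. Ccl12 had 15 UMIs in the triplet and 0 in PAM + Zymosan, which makes it at least 5.51-fold higher against a floor of 3 UMIs over the group. In the other direction, Cxcl3 was at 1260, 1300 and 835 CPM against 8280, 8310 and 8800 CPM (−2.91 ± 0.21, adjusted p = 7.6e-30 by the same test). The neutrophil attractants Cxcl1 and Cxcl2 had −1.47 ± 0.2 and −1.06 ± 0.16, and Ccl17, a ligand of CCR4, had −1.18 ± 0.27. No triplet library of Cxcl1, Cxcl2 or Cxcl3 reached the level of a PAM + Zymosan library. The fifth lower gene, Ccl9, lost its call without PAM + Zymosan replicate 1 or 2 or triplet replicate 2 or 3 (adjusted p 0.0769 to 0.192).

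Of 16 cytokine genes, 9 were higher and 1 lower with LPS, with a median of 1.14. Il6 was at 2910, 2570 and 2410 CPM against 1130, 1210 and 1100 CPM in PAM + Zymosan (log2 fold change 1.19 ± 0.15, adjusted p = 1.06e-12, edgeR's quasi-likelihood test), with no overlap. Il15, which sustains natural killer and memory T cells, had 3.54 ± 0.38, and the TNF family member Tnfsf15 1.72 ± 0.25. Il27 had 12 UMIs against 1, or 13.2 times as many (counting interval 1.96 to 565), and its call was lost without triplet replicate 2 (adjusted p = 0.22) or PAM + Zymosan replicate 2 (0.06). Il10, the anti-inflammatory cytokine, was called at 1.71 ± 0.51 and lost the call without triplet replicate 2 (0.112) or PAM + Zymosan replicate 3 (0.087). The lower gene was Il1b, at 6320, 6140 and 5300 CPM against 8810, 8700 and 8120 CPM (−0.53 ± 0.11, adjusted p = 7.98e-05, edgeR's quasi-likelihood test). Tnf was at 10200, 11300 and 10100 CPM against 9190, 11200 and 10300 CPM, with full overlap (0.04 ± 0.15).

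Antigen presentation on MHC class I rose throughout the genes tested. All 13 tested genes of the list were called higher with LPS, from 0.67 to 3.11 on the log2 scale with a median of 1.54, and the other 4 of its 17 genes did not pass the filter on low counts. The peptide transporter Tap1 was at 579, 747 and 605 CPM in the triplet against 63.2, 95.8 and 64.9 CPM (3.11 ± 0.22, adjusted p = 2.62e-29, edgeR's quasi-likelihood test), and the light chain B2m at 11100, 10900 and 12400 CPM against 5720, 5830 and 6120 CPM (0.96 ± 0.11). The groups did not overlap in either gene. On MHC class II 1 of 8 tested genes was higher, the protease Ctss (0.39 ± 0.1), a call lost without triplet replicate 3 (adjusted p = 0.0604) and when libraries were scaled by their totals alone (0.2, adjusted p = 0.0934). With LPS 13.6% of all tested genes were called higher, and the class II count was near that share. Of 13 maturation genes 9 were higher. Cd40 was at 1270, 1420 and 1650 CPM against 168, 280 and 270 CPM (2.54 ± 0.19), and the costimulator Cd86 at 418, 338 and 396 CPM against 73.7, 103 and 40 CPM (2.48 ± 0.32). Of 6 plasmacytoid dendritic cell markers only Bst2, which is also interferon-inducible, and Tcf4 were tested, and they were higher by 1.9 and 2.54. Cd209d and Klk1 were at 0 in both groups, and Siglech was at 0 in the triplet and detected in PAM + Zymosan. The list summed to 747 to 1210 CPM against 179 to 285 CPM, and its part in the result was not tested.

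Nos2, which makes nitric oxide, was at 332, 352 and 431 CPM in the triplet against 10.5, 29.5 and 4.99 CPM in PAM + Zymosan (log2 fold change 4.67 ± 0.46, adjusted p = 5.52e-18, edgeR's quasi-likelihood test). It was not called over PAM + LPS (0.63 ± 0.25, adjusted p = 0.163) or over LPS + Zymosan (0.57 ± 0.25, adjusted p = 0.615). Fam26f, an interferon-inducible membrane gene, had 4.62 ± 0.33. Other large rises began from almost no UMIs in PAM + Zymosan. Tpx2, a spindle protein, Il33 and Bambi-ps1 had 29, 25 and 23 UMIs in the triplet and 0 in the pair, which makes them at least 10.7-, 9.18- and 8.45-fold higher against the floor of 3 UMIs over the group. Gbp9, a guanylate-binding protein, had 45 UMIs against 1 (ratio 49.6, counting interval 8.46 to 2000), Serpina3f, a protease inhibitor, 101 against 3 (37.1, 12.3 to 183), and the double-stranded RNA sensor Tlr3 31 against 1 (34.2, 5.69 to 1390).

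The list of nitric oxide, arginine, itaconate, prostaglandin and antioxidant genes had 5 higher and 5 lower calls among 14 tested genes with LPS. The antioxidant gene Srxn1 was at 190, 211 and 139 CPM in the triplet against 632, 884 and 599 CPM in PAM + Zymosan (log2 fold change −1.97 ± 0.22, adjusted p = 1.82e-14, edgeR's quasi-likelihood test). Gclm had −1.79 ± 0.29, Txnrd1 −1.33 ± 0.17, the cystine transporter Slc7a11 −1.17 ± 0.17 and Hmox1 −1.06 ± 0.19. These 5 genes were the lower calls, and Sod2 and Nqo1 of the same list were not called. The higher calls were Nos2, Slc7a2, Irg1, Gch1 and Ptgs2. The ferritin light chain Ftl1 fell from 35100, 34200 and 37500 CPM to 20800, 19500 and 21800 CPM (−0.78 ± 0.09). Of 21 receptor and adaptor genes 3 were higher, namely Tlr3, Tlr7 and Fcer1g, 5 were lower and 13 were not called, with a median of −0.18 against −0.08 over all tested genes. With LPS 13.6% of all tested genes were called higher and 8.56% lower, so the count of higher receptor genes was near that share. The Fcer1g value was small (0.34 ± 0.12, adjusted p = 0.0308, edgeR's quasi-likelihood test), and its call was kept under only 5 of 13 alternatives (0.15 to 0.46, adjusted p up to 0.333). It was lost with library totals alone, RLE factors or DESeq2 and without any library of the 2 groups except triplet replicate 2. Tlr7 had 1.05 ± 0.33 and lost its call without triplet replicate 1 or PAM + Zymosan replicate 1 (0.0704 and 0.0726). The scavenger receptor Marco was at 760, 789 and 577 CPM against 2620, 2360 and 2780 CPM (−1.88 ± 0.2), and Clec4n, which encodes Dectin-2, at 484, 345 and 320 CPM against 1280, 943 and 874 CPM (−1.43 ± 0.17). Clec5a was called at −1.71 and lost the call without triplet replicate 3 (adjusted p = 0.0604) or PAM + Zymosan replicate 3 (0.0581). Clec7a, the receptor for Zymosan, was at 342, 366 and 341 CPM against 526, 611 and 400 CPM (−0.52 ± 0.19, adjusted p = 0.0349). That call was lost without any triplet library or without PAM + Zymosan replicate 1 or 2 (0.059 to 0.265), and was kept under 6 of 13 alternatives. When libraries were scaled by their totals alone, the receptor list had 2 higher and 9 lower calls.

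By the same rule the largest falls with LPS were in genes with few UMIs in the triplet. Akap8, a nuclear anchoring protein, had 1 UMI against 25 in PAM + Zymosan, or 0.0441 times as many (counting interval 0.00107 to 0.269). The amino acid transporter Slc43a2 had 2 against 30 (0.0735, 0.00851 to 0.29), the desaturase Scd2 2 against 27 (0.0816, 0.00941 to 0.325) and the thiol dioxygenase Ado 3 against 36 (0.0918, 0.0181 to 0.291). Dok2, an adaptor that restrains signalling in myeloid cells, was at 0, 14.1 and 27.8 CPM against 84.2, 140 and 145 CPM (log2 fold change −3.01 ± 0.59, adjusted p = 1.35e-05, edgeR's quasi-likelihood test). The list counts that follow stand beside 13.6% higher and 8.56% lower over all tested genes with LPS. On the alternative activation list 0 of 7 tested genes were higher with LPS, 2 were lower and 5 were not called, with 3 of the 7 above 0 and a median of −0.28, which was 0.09 without triplet replicate 2. The lower genes were Ccl17, given above, and Tgfbi, a matrix protein (−2.1 ± 0.35). Of 13 tested dendritic cell and macrophage markers, 2 were higher, 5 lower and 6 not called, with a median of −0.2, and 1 was higher without triplet replicate 2 or PAM + Zymosan replicate 3. The Fc receptor Fcgr1 had 3.57 ± 0.44, while the integrin Itgax (CD11c) had −1.06 ± 0.22, Emr1 (F4/80) −0.99 ± 0.2 and the growth factor receptor Csf1r −0.87 ± 0.16. These 4 marker calls and that of Tgfbi were kept under all 13 alternatives run for each. On the glycolysis and hypoxia list 4 of 20 genes were higher and 3 lower with LPS and the median was 0. The 3 lower genes, Aldoa, Pgk1 and Pkm, each lost their calls without triplet replicate 2 (adjusted p 0.0631 to 0.198). Further losses came without triplet replicate 1 for Aldoa and Pkm, without PAM + Zymosan replicate 3 for Aldoa and Pgk1 and without PAM + Zymosan replicate 2 for Pgk1 (0.0553 to 0.111). Thinning to equal totals also ended the calls of Aldoa, Pgk1 and Il27 (0.0714 to 0.111).

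PAM added to LPS + Zymosan raised a small group of inflammatory genes. Among the 20 higher genes (0.424% of those tested) were 6 of the 16 tested cytokines, 4 of the 17 chemokines and 3 of the 26 NF-kB and feedback genes, and 0 genes of these lists were lower. The medians were 0.47, 0.1 and 0.33 against −0.03 over all tested genes, and 24 of the 26 NF-kB and feedback genes lay above 0. The interferon-response, MHC class I, maturation, receptor, and glycolysis and hypoxia lists had 0 calls in either direction by edgeR's quasi-likelihood test. Of all tested genes 0.508% were called with PAM, so 0 calls in lists of this size is near that share. Il1a was at 4220, 4230 and 3770 CPM in the triplet against 2170, 1930 and 1870 CPM in LPS + Zymosan (log2 fold change 1.03 ± 0.13, adjusted p = 1.01e-09 by the same test). Il1b was at 6320, 6140 and 5300 CPM against 3730, 2570 and 3080 CPM (0.92 ± 0.12), and Il6 at 2910, 2570 and 2410 CPM against 1410, 1360 and 1190 CPM (0.99 ± 0.14). Every triplet library of Il1b lay above every LPS + Zymosan library. Il1a and Il6 were named among the largest rises by a rule that required this.

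The neutrophil attractant Cxcl2 was at 5170, 3720 and 3460 CPM in the triplet against 2380, 2090 and 2010 CPM in LPS + Zymosan (log2 fold change 0.92 ± 0.17, adjusted p = 0.000124, edgeR's quasi-likelihood test). Ccl3, which attracts monocytes, had 0.72 ± 0.14, Ptgs2, the inducible prostaglandin synthase, 0.98 ± 0.19 and Tnfaip3, the ubiquitin-editing inhibitor of NF-kB, 0.79 ± 0.13. With Il1a, Il1b, Il6 and Cxcl2 these made up the 7 of 24 calls that held when each of the 6 libraries was left out in turn. The other 17 were lost without at least 1 library, and the count of calls then ran from 9 to 16. It was 9 without triplet replicate 2 and also 9 without LPS + Zymosan replicate 2.

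Among the 17, Il10 was at 47.5, 134 and 90.4 CPM against 23, 17.9 and 28.9 CPM (log2 fold change 2.0 ± 0.5) and kept its call only without triplet replicate 1 (adjusted p 0.0608 to 0.472 in the others). The costimulatory ligand Tnfsf9 had 1.33 ± 0.34 and Ier3, an immediate early gene, 1.12 ± 0.26. Tnfsf9 lost its call without triplet replicate 1 or 2 or LPS + Zymosan replicate 1 or 3 (0.0705 to 0.472), and Ier3 without triplet replicate 2 or LPS + Zymosan replicate 1 or 2 (0.0745 to 0.413). With no filter on low counts Tnfsf9 lost it too (1.29, adjusted p = 0.0798, edgeR's quasi-likelihood test). U90926, a noncoding transcript, had 1.18 ± 0.27 and lost its call without triplet replicate 1 or 3 or LPS + Zymosan replicate 2 (0.0531 to 0.142). Cxcl3 and Cxcl1, with 0.98 ± 0.24 and 0.91 ± 0.23, lost theirs without triplet replicate 1 or 2 or LPS + Zymosan replicate 2, and Cxcl1 also without LPS + Zymosan replicate 3 (0.0986 to 0.395). Tnf was at 10200, 11300 and 10100 CPM against 7220, 7060 and 6900 CPM (0.58 ± 0.15). All 3 triplet libraries of Tnf were higher, and its adjusted p of 0.0364 rose to between 0.0715 and 0.262 without each library.

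Further higher genes with PAM were Ptx3, a soluble pattern receptor (0.86), the acute-phase gene Saa3 (0.85), Zfp36, which destabilises cytokine transcripts (0.61), the cytokine signal inhibitor Socs3 (0.58) and Dusp1, described below. Saa3 lost its call without LPS + Zymosan replicate 2 (adjusted p = 0.0615, edgeR's quasi-likelihood test). Ptx3 lost it without triplet replicate 2 or any LPS + Zymosan library (0.0615 to 0.561), and Zfp36 and Socs3 without triplet replicate 2 or 3 or any LPS + Zymosan library (0.0611 to 0.588). The 4 lower genes were the anaphylatoxin receptor C3ar1 (−1.13 ± 0.3), the protease inhibitor Serpina3g (−0.78 ± 0.19), the lysosomal protease Ctsd (−0.36 ± 0.09) and Ftl1 (−0.36 ± 0.09). C3ar1 and Ftl1 lost their calls without each of the 6 libraries, Ctsd without each except LPS + Zymosan replicate 1, and Serpina3g without triplet replicate 1 or 2 or LPS + Zymosan replicate 2 (0.0502 to 0.45). Ctsd and Ftl1 also lost theirs with no filter on low counts (0.267 and 0.163), and C3ar1 and Ctsd with only the libraries of the 4 groups (0.101 and 0.113). After thinning to equal totals 12 calls were left with PAM, and Il10, Ier3, Dusp1, Tnf, Cxcl1, Socs3, Ptx3, Zfp36, C3ar1, Ctsd and Ftl1 were among those lost (0.0706 to 0.764).

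The promoters of Il6 and Cxcl2 are shown because both genes kept their rise with PAM and hold the letters GGGA and TTCC separated by 2 bases of any kind, as in an NF-kB site. They lie at chr5:30012864-30013163 and chr5:90903649-90903948, both on the + strand of GRCm38.p6 of RefSeq. Capitals mark the matches on either strand, 1 in Il6 and 2 overlapping ones in Cxcl2.
Il6: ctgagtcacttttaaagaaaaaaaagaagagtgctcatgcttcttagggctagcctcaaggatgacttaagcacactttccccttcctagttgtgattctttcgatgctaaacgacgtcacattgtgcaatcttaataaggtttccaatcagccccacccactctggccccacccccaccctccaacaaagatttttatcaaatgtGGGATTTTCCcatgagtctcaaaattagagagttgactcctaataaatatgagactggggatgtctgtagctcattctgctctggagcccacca
Cxcl2: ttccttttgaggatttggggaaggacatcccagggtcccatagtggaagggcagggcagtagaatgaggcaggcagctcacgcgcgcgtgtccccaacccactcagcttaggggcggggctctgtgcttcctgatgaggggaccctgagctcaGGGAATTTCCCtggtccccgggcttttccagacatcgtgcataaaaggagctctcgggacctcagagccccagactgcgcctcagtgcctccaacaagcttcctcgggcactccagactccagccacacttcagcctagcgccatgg
The motif stood in 4 of the 17 matched genes that were higher with PAM (23.5%), namely Cxcl1, Cxcl2, Cxcl3 and Il6. Of these, Cxcl1 and Cxcl3 lost their calls without single libraries, as given above. It stood in 2.25% of the tested genes with a window. It also stood in 3 of the 11 matched interferon-list genes (27.3%), namely Ifit2, Isg20 and Cxcl10, which were not called with PAM. The share was 8.22% and 3.45% of matched genes lower and higher with Zymosan, and 2.88% and 4.14% with LPS. The motif was thus not particular to genes that were higher with PAM.

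**Figure D4:**
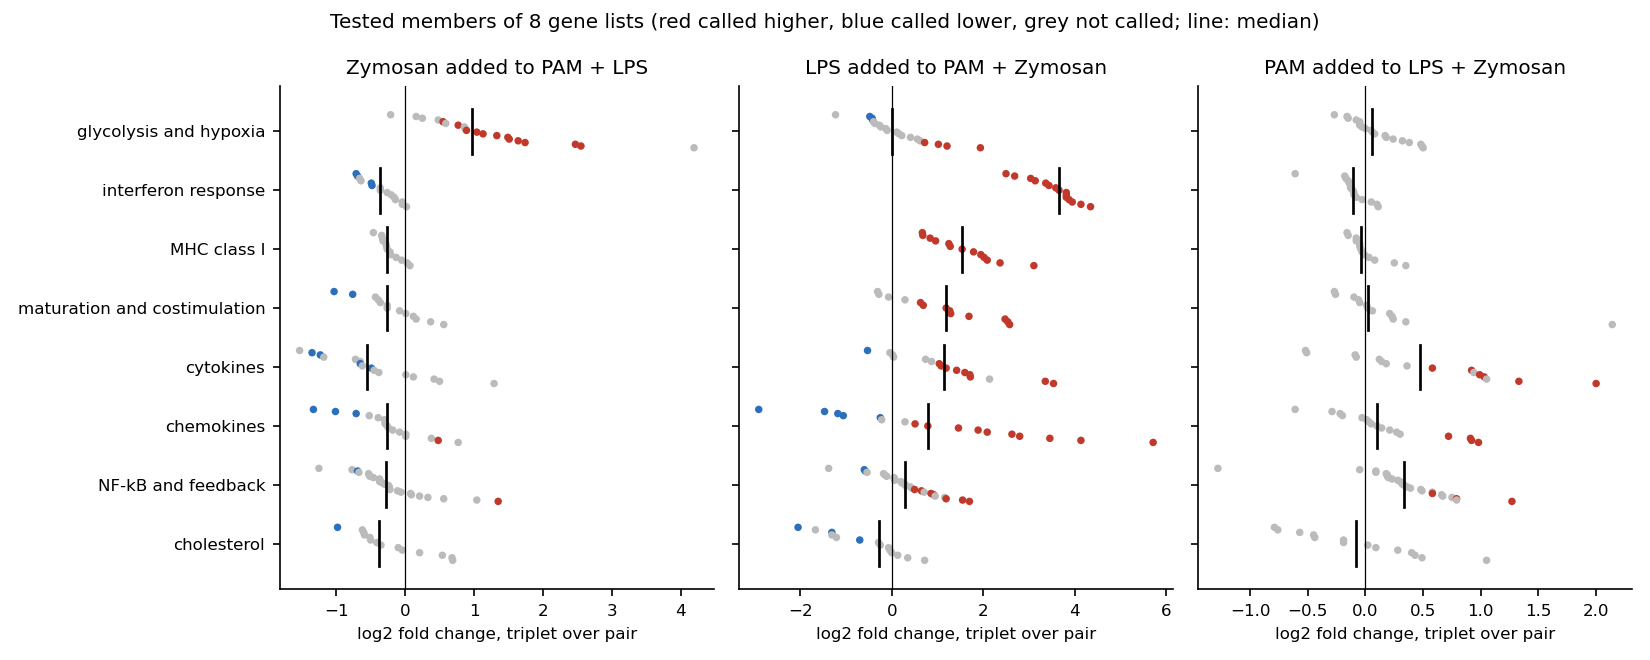
Log2 fold change of the triplet over each pair for the tested members of 8 gene lists, 1 point per gene, with the list's median as a black line and a separate horizontal scale in each panel. The glycolysis and hypoxia list lies right of 0 with Zymosan (median 0.97), the interferon-response and MHC class I lists with LPS (3.66 and 1.54), and the cytokine list with PAM (0.47).

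A gene was called above all 3 pairs when the largest of its 3 p-values passed after adjustment and all 3 differences were positive. Dusp1, a phosphatase that switches off MAP kinases and an early feedback gene, was the only gene to pass (1 of 4720, 0.0212%). It was at 256, 394 and 383 CPM in the triplet. PAM + LPS had 54.7, 166 and 156 CPM, PAM + Zymosan 105, 155 and 99.9 CPM, and LPS + Zymosan 63.2, 250 and 98.3 CPM. The lowest triplet library thus lay just above the highest of the 9 pair libraries. The log2 fold changes over these pairs were 1.35 ± 0.27, 1.55 ± 0.29 and 1.27 ± 0.26, and the adjusted p over all 3 was 0.0114 by edgeR's quasi-likelihood test. The call was lost without triplet replicate 2 or 3, PAM + LPS replicate 1, PAM + Zymosan replicate 3, or LPS + Zymosan replicate 1 or 3, where the smallest of the 3 log2 fold changes was 0.95 to 1.27 (adjusted p 0.309 to 1). It was also lost when only the 12 libraries were fitted (0.0692) and after thinning to equal totals (1.06, adjusted p = 1). The value over LPS + Zymosan alone ran from 0.95 without LPS + Zymosan replicate 1 to 2.11 without LPS + Zymosan replicate 2, which was the library at 250 CPM. At an unadjusted p under 0.05, 19 genes lay above all 3 pairs and 13 below. No gene was called below all 3 pairs by edgeR's quasi-likelihood test, and DESeq2 gave 0 as well.

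On the log2 scale a three-way interaction is the departure of the triplet from the sum of the single and pair terms. It was called for 79 genes (1.67%), 61 positive (1.29%) and 18 negative (0.381%), with 557 genes at an unadjusted p under 0.05. With no filter on low counts the split was 58 and 6. The largest positive values were those of Papd7, an RNA nucleotidyltransferase (4.03 ± 1.07), the signalling inhibitor Irak3 (4.01 ± 1.11) and the mitochondrial enzyme Gpd2 (3.79 ± 0.81), and these had 1, 2 and 3 UMIs in Ctrl, so the fitted values depend on the prior count. The largest negative values were those of the endocytic adaptor Dab2 (−3.53 ± 0.76), the pyruvate carrier subunit Mpc2 (−3.48 ± 1) and the receptor Cd200r4 (−3.04 ± 0.81). Dab2 was at 94.9, 155 and 111 CPM in the triplet, which overlapped PAM + LPS (82, 69.5 and 117) and PAM + Zymosan (179, 95.8 and 105). Papd7 lost its call without Zymosan replicate 2 or Ctrl replicate 1 or 2 (adjusted p 0.0637 to 0.0823), Cd200r4 without PAM + Zymosan replicate 1 or 2 (0.061 to 0.0626), Irak3 without 7 of the 24 libraries (0.0601 to 0.152) and Mpc2 without 16 of them (0.0528 to 0.131). With no filter on low counts Cd200r4 and Mpc2 lost theirs as well (0.08 and 0.0543, edgeR's quasi-likelihood test). Gpd2 and Dab2 kept their calls without each library, and lost them after thinning to equal totals (3.12, adjusted p = 0.21, and −3.95, adjusted p = 0.173). The other 4 were lost there too (0.274 to 0.593).

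Each ligand's effect on top of the pair was then set against its effect alone, a comparison of 4 groups that share no library. PAM alone changed 824 genes against Ctrl (17.5%), LPS 1415 (30%) and Zymosan 429 (9.09%). Of the 457 genes that PAM alone raised (9.68%), 15 were also higher when PAM was added to LPS + Zymosan (3.28% of the 457, 75% of the 20). The median log2 fold change of all 457 was 1.59 alone and 0.09 when added. Of the 807 genes that LPS alone raised (17.1%), 469 were also higher when LPS was added (58.1% of the 807, 73.2% of the 641) and 33 were lower. The medians of all 807 were 1.88 and 1.04. Of the 294 raised by Zymosan alone (6.23%), 59 were also higher when it was added (20.1% of the 294, 57.3% of the 103), and 18 were lower. The medians of all 294 were 1.37 and 0.15. LPS alone lowered 608 genes (12.9%), of which 137 were lower again when it was added (22.5% of the 608, 33.9% of the 404). For Zymosan these were 4 of 135 genes (2.86% lowered alone), 2.96% of the 135 and 4.08% of the 98, and for PAM 2 of 367 (7.78% lowered alone), 0.545% of the 367 and 50% of the 4. Genes were chosen by the effect alone, so the first median of each pair is raised by that choice.

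The difference between the added and the lone effect was tested gene by gene. It was called for 194 genes with Zymosan (4.11%), 26 positive (0.551%) and 168 negative (3.56%). With LPS it was called for 351 genes (7.44%), 106 positive (2.25%) and 245 negative (5.19%), and with PAM for 388 genes (8.22%), 106 positive (2.25%) and 282 negative (5.97%). The split moved with the scaling. With library totals alone it was 79 and 110 for Zymosan, 181 and 217 for PAM, and with RLE factors 56 and 126, and 156 and 231. With no filter on low counts it was 9 and 206 for Zymosan, 46 and 264 for LPS and 49 and 320 for PAM. Tnf, Il6, Cxcl3, Cxcl10, Vegfa and Clec7a are described in these comparisons after their values were seen. Tnf rose by 2.65, 2.37 and 3.24 with Zymosan, LPS and PAM alone on the log2 scale. When each was added to the other pair the values were 0.12 and 0.04 with Zymosan and LPS, which were not called, and 0.58 with PAM. The differences were −2.53 ± 0.24, −2.33 ± 0.24 and −2.66 ± 0.24 (largest adjusted p 8.02e-16, edgeR's quasi-likelihood test). Ctrl held 637, 1130 and 797 CPM of Tnf.

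Il6 differed by −2.06 ± 0.3 with LPS and −2.34 ± 0.29 with PAM (adjusted p = 7.59e-09 and 1.22e-11, edgeR's quasi-likelihood test), and by −0.89 ± 0.36 with Zymosan, which was not called. Cxcl3 differed by −3.33 ± 0.35 with Zymosan, −4.79 ± 0.35 with LPS and −4.04 ± 0.36 with PAM, and PAM alone had taken it from 402, 274 and 336 CPM in Ctrl to 10700, 10700 and 11300 CPM. For Cxcl10 the differences were not compared between ligands. With LPS its rise was 4.25 alone and 4.14 when added, a difference of −0.11 ± 0.34 that was not called. With Zymosan it was 0.46 alone and −0.71 when added, a difference of −1.17 ± 0.32 (adjusted p = 0.0142), lost without PAM + LPS replicate 3, Zymosan replicate 2 or Ctrl replicate 1 or 3 (0.0548 to 0.292) and after thinning (0.0818).

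Vegfa moved the other way. LPS and PAM alone lowered it by −2.72 and −3.48 from 111, 262 and 154 CPM in Ctrl, and the values on top of the other pair were 0.41 and −0.15, so the differences were 3.13 ± 0.67 and 3.33 ± 0.69 (adjusted p = 0.000213 and 0.000104, edgeR's quasi-likelihood test). Clec7a was at 1120, 910 and 893 CPM in Ctrl and at 268, 299 and 358 CPM with LPS alone. Its differences were 1.11 ± 0.26 with LPS and 1.66 ± 0.27 with PAM, and 0.45 ± 0.25 with Zymosan, which was not called.

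**Figure D5:**
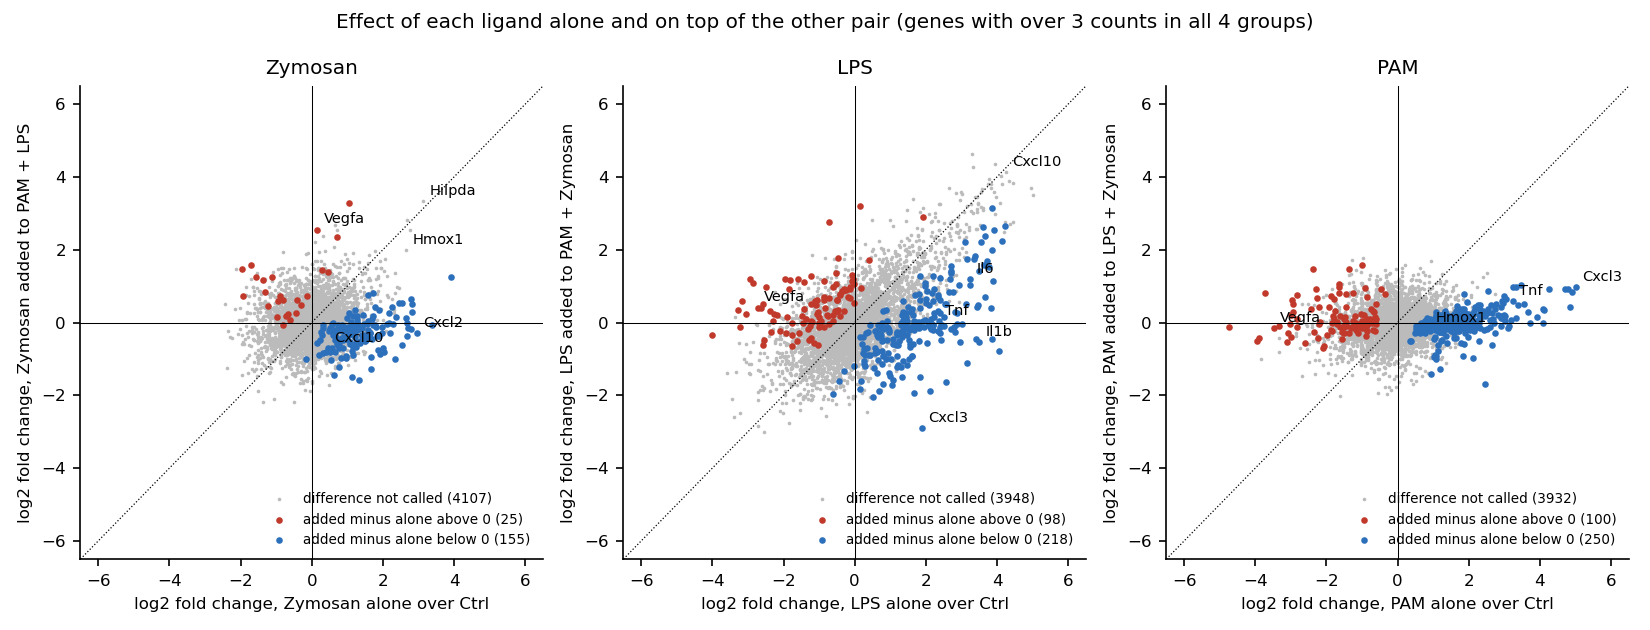
Log2 fold change of each ligand added to the other pair (vertical axis) against its effect alone over Ctrl (horizontal axis), 1 point per gene with more than 3 UMIs in each of the 4 groups, with the line of equality dotted. Red and blue points are genes whose added minus lone effect was called above 0 (25 with Zymosan, 98 with LPS, 100 with PAM) or below 0 (155, 218 and 250).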

How the data were processed

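RNA of mouse bone marrow-derived dendritic cells was made into libraries by template switching and Nextera XT and sequenced on a NextSeq550, per the labels' protocols. The deposited table holds UMI counts per gene symbol made by the authors, and the submitters' processing notes name BWA 0.7.15 and mm10. No further upstream step is given in the sources used here.

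All libraries of the 64 groups were fitted with 1 coefficient per group in edgeR 4.0.16 (R 4.3.3, limma 3.58.1), with TMM factors, the filterByExpr filter by group (4720 of 23481 genes, holding 95.7% of UMIs) and the quasi-likelihood F-test with Benjamini-Hochberg adjustment in each comparison. The residual degrees of freedom were 128. An SE is the log2 fold change divided by the square root of F. The common biological coefficient of variation was 10.3%. The code was tested on simulated data.

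The groups, members and lists were chosen with earlier results of these data known. Named genes were the 8 largest called rises and 5 largest called falls of each comparison whose mean reached 50 CPM in 1 or both groups and whose libraries did not overlap, up to 10 genes beyond all 3 pairs, 3 of each sign in the difference tests, up to 4 genes per list and a set of cytokine, interferon and receptor genes. Further genes, on the lists and off them, were named after their values were seen, among them Icam1, Il12a, Mx1, Irf7, Tpi1, Hk2, Ldha, B2m, Tnfaip2 and, with PAM added, Cxcl1, Cxcl2, Ccl3, Tnfaip3, Socs3, Ptgs2, Ptx3, Saa3 and Zfp36. Alternatives were DESeq2 1.42.0, RLE factors, library totals alone, no filter on low counts, only the libraries of the groups compared, the replicate number as a block, thinning to the lowest total and leaving out each library. Thinning used 1 random draw and took the 12 libraries of the triplet and its pairs to 92149 UMIs each. For the interaction and the added minus lone effects, these and the single-ligand and Ctrl libraries were taken to 61823. All other libraries kept their totals. Promoters came from the RefSeq table of GRCm38.p6. The values of 1 gene that the rule names are not reported here.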

Additional observations from a re-analysis of the deposited data

Results flagged for a closer look

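For each ligand the effect on top of the other pair differed from its effect alone, by a test of the difference itself in edgeR, for 194 genes with Zymosan, 351 with LPS and 388 with PAM. The values below are added minus lone effects on the log2 scale. Tnf, Il6, Il1b, Cxcl2, Cxcl3, Cxcl10, Clec7a and Vegfa are given here after their values were seen.

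With Zymosan, Tnf had −2.53, Il1b −2.02, Cxcl2 −3.26, Cxcl3 −3.33 and Cxcl10 −1.17, while Vegfa had 2.39. Vegfa lost its call without triplet replicate 1 or 2, PAM + LPS replicate 2 or 3 or Ctrl replicate 2 (adjusted p 0.0529 to 0.115, edgeR's quasi-likelihood test). The largest positive values were Pdxk (3.75), Idua (3.44) and Preb (3.3), and the largest negative ones Tfec (−6.06), Med11 (−5.92) and Upp1 (−5.69). Of the 12 genes in this paragraph, 5 kept their calls without each library in turn, namely Cxcl2, Cxcl3, Il1b, Preb and Tnf. After thinning to equal totals Cxcl10, Vegfa, Pdxk, Idua, Preb, Tfec, Med11 and Upp1 lost theirs (0.0818 to 0.441).

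With LPS, Il6 had −2.06, Tnf −2.33, Il1b −4.03, Cxcl2 −2.41 and Cxcl3 −4.79, while Clec7a had 1.11 and Vegfa 3.13. The largest positive values were Fam198b (5.7), Daglb (4.68) and C77080 (4.36), and the largest negative ones Tfec (−7.47), Ampd3 (−6.77) and Lox (−6.5). Daglb rested on triplet replicate 1, without which it had 2.74 (adjusted p = 0.595, edgeR's quasi-likelihood test). Fam198b, C77080, Ampd3 and Lox also lost their calls without 1 or more libraries, and the other 8 kept them. Thinning ended the calls of Fam198b, C77080 and Lox (0.0995 to 0.428).

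With PAM, Il6 had −2.34, Tnf −2.66, Il1b −3.79, Cxcl2 −3.35 and Cxcl3 −4.04, while Clec7a had 1.66 and Vegfa 3.33. The largest positive values were Gadd45g (5.42), Rcbtb2 (5.35) and Cxcl14 (4.82), and the largest negative ones Med11 (−7.26), Ampd3 (−7.16) and Upp1 (−6.36). These 13 genes kept their calls when each of the 12 libraries was left out, and Gadd45g and Ampd3 lost them after thinning (0.162 and 0.0925).

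Tfec, Med11, Upp1, Ampd3 and Lox had 0 UMIs in Ctrl, Fam198b 0 with LPS and Gadd45g 0 with PAM, so their fitted values depend on the prior count and bound nothing.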

How the results depend on the processing

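The 238 named calls gave 1770 refits without 1 library, each call counted once per library left out, of which 1490 kept the call and 0 reversed. Of 1641 refits under the other alternatives 1532 kept it and 0 reversed. Thinning to equal totals lost the most, 55 of 238. It left 115 calls for Zymosan added, 12 for PAM added, 0 above all 3 pairs, 35 for the interaction, and 94, 216 and 222 for the added minus lone effects of Zymosan, LPS and PAM. With only the libraries of the 4 groups, 0 genes lay above all 3 pairs. Without 1 library the counts ran from 138 to 234 for Zymosan, 825 to 957 for LPS, 9 to 16 for PAM, 0 to 1 above all 3 pairs, 59 to 95 for the interaction, and 146 to 209, 289 to 343 and 330 to 381 for the differences. The 234 came without PAM + LPS replicate 1.

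Library totals alone moved the median of all genes with LPS added from −0.08 to −0.27. They moved the medians of the added minus lone effects from −0.07 to 0.15 with Zymosan, −0.07 to 0.13 with PAM and −0.02 to 0.09 with LPS, and RLE factors gave 0.08 for Zymosan and for PAM. The interaction split of 61 positive and 18 negative became 58 and 29 with RLE factors and 66 and 42 with DESeq2. The added minus lone splits with DESeq2 were 58 and 132 for Zymosan and 129 and 200 for PAM.

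Values that changed sign belonged to genes that were not called. With LPS added, Tnf was −0.14 with library totals alone and −0.02 to 0.11 without 1 library, and Tlr2 −0.05 and −0.01 to 0.27. With PAM added, leaving out 1 library gave Il12b −0.29 to 1.12, Cd40 −0.09 to 0.1, Clec7a −0.4 to 0.13, Cxcl10 up to 0.08 and Ccl5 down to −0.08. Thinning gave Cxcl10 0.05, Cd40 −0.03 and Clec7a 0.14, and no filter gave Ccl5 −0.05 and Cd40 −0.02. The LPS difference of Cxcl10 was 0 with library totals alone and 0.01 after thinning.

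The deviations of same-numbered libraries of different groups had a median correlation of 0.013 (−0.038 to 0.059), and those of differently numbered ones −0.0115 (−0.094 to 0.062). Counting noise draws such correlations towards 0, so a pairing by number was not shown and is not excluded. With the replicate block there were 231, 1062 and 25 calls for Zymosan, LPS and PAM added, 1 above and 0 below all 3 pairs, 91 for the interaction, 218, 372 and 407 for the differences, and Ccl5 with PAM added was −0.01. All 238 named calls were kept.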

Other observations

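Over all 64 groups of the series, the mean level of Nos2 was highest in PAM + LPS + Zymosan, at 372 ± 52.3 CPM (SD, n = 3) against a median of 62.5 CPM over the groups, but it was not called above PAM + LPS or LPS + Zymosan (adjusted p = 0.163 and 0.615, edgeR's quasi-likelihood test). Dusp1 was the second highest, at 344 ± 76.5 CPM, after LPS + cGAMP + CpGB at 383 ± 52.4 CPM. Slc2a1 and Il10 each ranked 4 and Hilpda 7. Other inflammatory genes of the triplet stood in the middle of the groups, with Il6 and Tnf each at rank 25, Ccl5 at 28 and Cxcl10 at 41. Il12b ranked 43, at 50 ± 10.4 CPM against 1230 ± 437 CPM in the highest group, and Ifnb1 ranked 51. These ranks are descriptions and were not tested.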
